A study of Mus musculus with 32 samples.

Results

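The 8 integrin subunit genes described here are Itgam, Itgb2, Itgal, Itga4, Itga6, Itgav, Itgb1 and Itgb5. Across the series they were followed in every library, from whole-brain homogenate as well as from sorted microglia. They were taken by gene symbol from the exon count table, which held 1 row for each of the 8 among its 24411 genes. The mice were C57BL/6 and carried the RPL22-HA (RiboTag) allele, which puts an HA epitope on a protein of the large ribosomal subunit in cells where Cre recombinase has acted. In the Sall1-CreER line the tamoxifen-inducible Cre stood under Sall1, a transcription factor gene used to mark microglia, and in the Cx3cr1-CreER line under Cx3cr1, a chemokine receptor gene of microglia and other brain macrophages. Each line had 4 mice, so the 4 libraries of a group came from separate animals. All mice of both lines, and so all control libraries too, had been given tamoxifen by gavage when 4 to 6 weeks old, in 4 doses of 5 mg on alternate days.

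Every brain gave 4 libraries of polyadenylated RNA, so each line and material had 4 libraries and the series 32. HA is the RNA that an anti-HA antibody pulled from whole-brain homogenate, made with cycloheximide to hold ribosomes on their messages, and IgG is the same precipitation with a mouse IgG1 control. Sort is total RNA of microglia that were freed by enzymes, cleaned on Percoll and sorted by flow cytometry, and SortIP is the anti-HA precipitate of such sorted cells. Titles and antibody entries contradict the descriptions in 8 libraries, those of sorted cells from the Cx3cr1 line. These libraries are called titled SortIP and titled Sort below, and the grouping by description is given wherever a result turns on it.

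Integrins are receptors for matrix and for other cells, each built from 1 alpha and 1 beta chain, and neither chain reaches the cell surface without its partner. Leukocytes use the beta 2 chain (Itgb2, CD18), which joins the alpha M chain (Itgam, CD11b) in complement receptor 3 and the alpha L chain (Itgal, CD11a) in LFA-1. The beta 1 chain (Itgb1) is shared by many alphas, among them alpha 4 (Itga4) and alpha 6 (Itga6), while the beta 5 chain (Itgb5) is known to pair only with alpha V (Itgav). CD11b is the surface protein most used to sort microglia, and complement receptor 3 is known in microglia for binding synapses and debris tagged with complement.

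Itgam lies on chromosome 7 (mm9, 135206154 to 135262005) and Itgb5 on chromosome 16 (33829751 to 33949424). The 250 bases before the annotated starts of these genes are shown because they are the best known myeloid integrin gene and the most abundant subunit gene of these libraries. The sequences are those of RefSeq on GRCm38.p6, plus strand. Capitals mark, in Itgam, the core motif of the myeloid factor PU.1 (GAGGAA, or TTCCTC on the other strand) and, in Itgb5, the Sp1 motif (GGGCGG, or CCGCCC on the other strand).
Itgam: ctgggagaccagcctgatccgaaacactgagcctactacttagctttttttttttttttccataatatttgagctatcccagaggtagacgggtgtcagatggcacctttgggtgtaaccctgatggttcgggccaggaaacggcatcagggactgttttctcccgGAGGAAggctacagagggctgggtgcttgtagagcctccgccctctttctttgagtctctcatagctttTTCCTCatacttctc
Itgb5: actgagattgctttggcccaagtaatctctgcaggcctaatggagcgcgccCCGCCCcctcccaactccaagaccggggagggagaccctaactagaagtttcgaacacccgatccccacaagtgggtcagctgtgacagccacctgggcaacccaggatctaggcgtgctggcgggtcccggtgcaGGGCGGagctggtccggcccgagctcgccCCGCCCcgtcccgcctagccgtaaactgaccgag
The PU.1 core stood in the Itgam window at 84 and 15 bases before the start and was not among the letters of the Itgb5 window. Over 32851 promoter windows of the same length 23.3% held the PU.1 core and 32.7% held the Sp1 motif. The promoter table held 5 of the 8 genes, of which Itgam, Itgav and Itgb1 held a PU.1 core and Itgam, Itga4, Itgb1 and Itgb5 an Sp1 motif. The motifs do not overlap each other, and a match here describes letters and not binding. The other genes lie on chromosome 10 (Itgb2, 76993093 to 77028419), chromosome 7 (Itgal, 134439774 to 134478651), chromosome 2 (Itga6, 71624996 to 71696484; Itga4, 79095583 to 79173271; Itgav, 83564554 to 83647074) and chromosome 8 (Itgb1, 131209554 to 131257479), all on the plus strand of mm9. Itga4 overlaps the opposite-strand gene Cerkl in the table, so its reads may be shared with that gene.

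Library totals ran from 249881 to 4047465 gene counts and were lowest in Cx3cr1 HA (286418 to 574671) and in Sall1 SortIP replicate 21 (249881). Levels are given as counts per 1e6 gene counts (CPM), and levels of different genes are set against each other only after division by gene length (CPM per kb). A list of 17 microglial marker genes took 0.552% to 0.67% of the counts in Sall1 HA, 0.0913% to 0.123% in Sall1 IgG, 7.77% to 9.16% in Cx3cr1 HA, 0.115% to 0.149% in Cx3cr1 IgG and 6.42% to 9.45% in the 16 sorted libraries. Astrocyte markers took 1.34% to 1.55% in Sall1 HA, against 0.101% to 0.128% in Cx3cr1 HA and 0.0248% to 0.0684% in the sorted libraries. Rpl22 was higher in HA than in IgG in both lines, by 1.63 in the Sall1 line and 1.57 in the Cx3cr1 line on the log2 scale. In these bulk libraries fewer cells of a type and less RNA per cell cannot be told apart.

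The subunits of complement receptor 3 were abundant in sorted cells and in Cx3cr1 HA, and low in Sall1 HA. Itgam had 47.0, 53.1, 44.8 and 39.0 CPM in the HA libraries of Sall1 mice 7, 9, 17 and 21, against 9.94, 17.8, 21.7 and 14.2 CPM in their IgG libraries. Itgam in the Cx3cr1 line had 760.4, 740.3, 796 and 782 CPM in HA, against 31.8, 28.3, 28.7 and 26.9 CPM in IgG. All 4 HA libraries of each line stood above all 4 IgG libraries of that line, and every Cx3cr1 HA library stood above every Sall1 HA library. Its partner Itgb2 had 15.3, 19.3, 18.9 and 24.1 CPM in the Sall1 HA libraries, against 5.68, 6.92, 11 and 5.10 CPM in the Sall1 IgG libraries. Itgb2 in the Cx3cr1 line had 343, 318, 372 and 269 CPM in HA, against 8.63, 13.4, 10.3 and 6.08 CPM in IgG. Again no HA library overlapped the IgG libraries of its line.

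Itgb5 was the subunit with the highest mean length-corrected level in all 8 groups, though in Cx3cr1 titled SortIP its libraries overlapped those of Itgam and in replicate 1 Itgam (249.8 CPM per kb) exceeded Itgb5 (217.6 CPM per kb). It had 499, 376, 358 and 381 CPM in the Sall1 HA libraries, against 68.2, 54.4, 68.3 and 66.3 CPM in the Sall1 IgG libraries. Its level in the Cx3cr1 line was 3137, 3264, 2953 and 5893 CPM in HA, against 74.5, 95.9, 78.0 and 72.5 CPM in IgG. The HA libraries of each line lay far above the IgG ones, and replicate 4 of Cx3cr1 HA, the shallowest library of its group, stood well above the other three. The alpha V chain, the known partner of the beta 5 chain and a receptor for vitronectin and latent TGF-beta, did the opposite in these homogenates. Itgav had 3.17, 4.71, 3.29 and 2.97 CPM in the Sall1 HA libraries, against 22.7, 15.8, 22.4 and 28.9 CPM in the Sall1 IgG libraries. Its level in the Cx3cr1 line was 1.74, 3.06, 4.59 and 0 CPM in HA (4 reads in all), against 19.1, 5.26, 24.7 and 28.2 CPM in IgG. Every HA library lay below every IgG library of its line.

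The beta 1 chain and the laminin-binding alpha 6 chain stood between these extremes. Itgb1 had 74.9, 101, 81.0 and 72.0 CPM in the Sall1 HA libraries, against 31.2, 27.9, 24.8 and 33.4 CPM in the Sall1 IgG libraries. Itgb1 in the Cx3cr1 line had 158, 110.1, 158 and 136 CPM in HA, against 24.1, 15.8, 28.3 and 26.0 CPM in IgG. Itgb1 was thus above IgG in all HA libraries of both lines. Itga6 had 16.4, 21, 19.3 and 22.5 CPM in the Sall1 HA libraries, against 34.1, 25.7, 23.8 and 44.7 CPM in the Sall1 IgG libraries. Itga6 in the Cx3cr1 line had 101, 91.8, 135 and 87.3 CPM in HA, against 24.5, 15.4, 27.4 and 21.7 CPM in IgG. In the Sall1 line all HA values of Itga6 lay below the IgG values, and in the Cx3cr1 line all lay above.

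The last 2 subunits were near the limit of detection. Itgal, the alpha chain of LFA-1, had 1 read in all of Sall1 HA and 1 read in all of Cx3cr1 HA, and its mean was at most 2.57 CPM in any group (Sall1 SortIP, 8 reads in all). Itga4, which with the beta 1 chain forms the VLA-4 receptor for Vcam1 and fibronectin, had 3 reads in all of Sall1 HA and 1 in all of Cx3cr1 HA, against 41 reads in Sall1 IgG and 34 in Cx3cr1 IgG. Its highest group mean was 13.1 ± 3.22 CPM in Sall1 Sort (SD, n = 4), and Sall1 SortIP averaged 11.5 ± 16.3 CPM because replicate 21 alone reached 36.0 CPM (9 reads in the shallowest library). A count of 0 allows up to 3 reads, which is 1.85 CPM over the 4 Cx3cr1 HA libraries together, so low levels of these genes could not be resolved there.

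**Figure D1:**
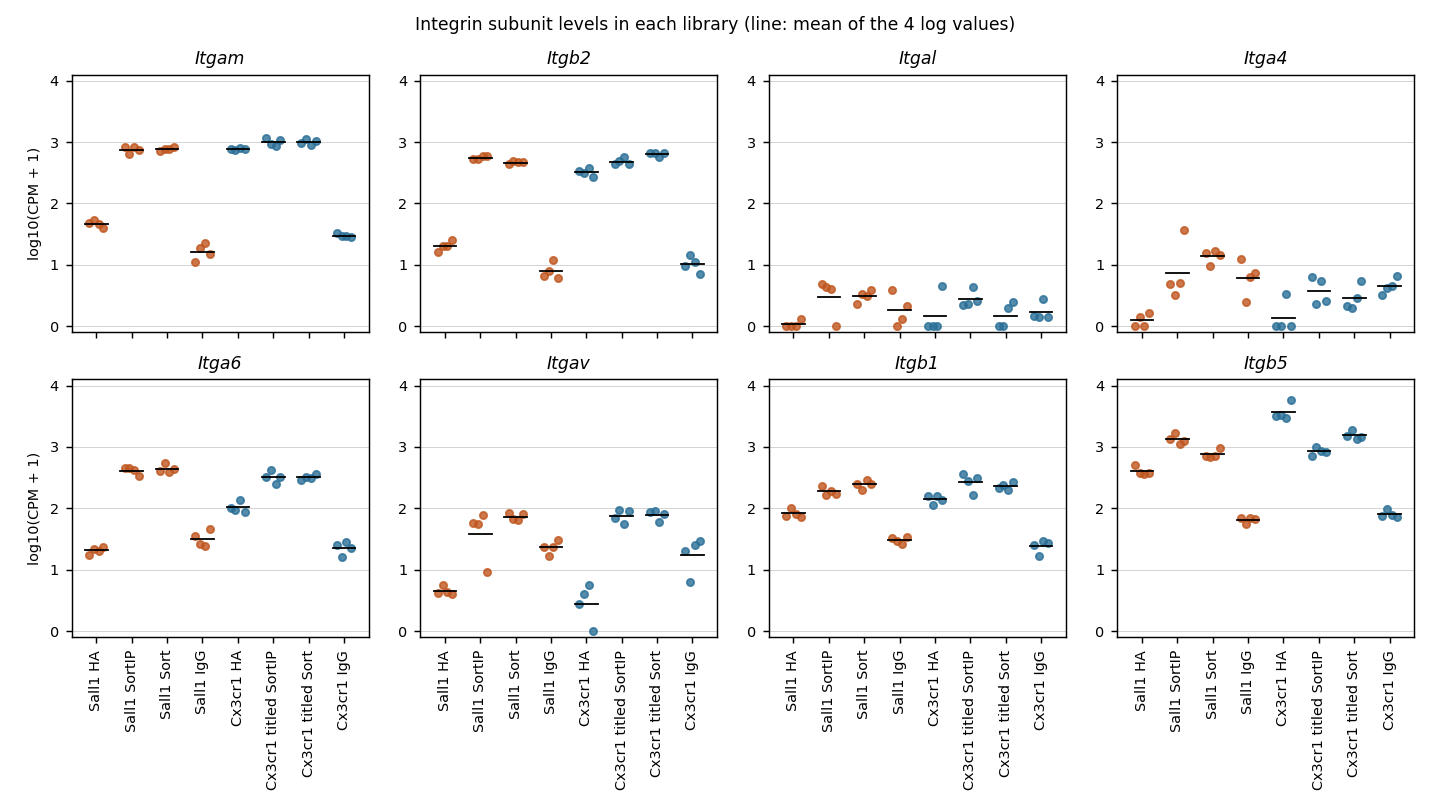
Level of each subunit in every library on a log10(CPM + 1) axis, with Sall1 line libraries in orange and Cx3cr1 line libraries in blue. Each point is 1 library and each line the mean of the 4 log values. Itgam, Itgb2 and Itgb5 are high in all sorted groups and in Cx3cr1 HA, Itgav is lower in HA than in IgG in both lines, and Itgal and Itga4 have the lowest levels.

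Set side by side per length, the order of the subunits differed between materials. In Sall1 HA Itgb5 (124 ± 19.8 CPM per kb, SD, n = 4) was followed by Itgb1 (19.7 ± 3.14), Itgam (9.89 ± 1.26), Itgb2 (6.82 ± 1.27) and Itga6 (3.30 ± 0.437). The libraries of Itgam and Itgb2 overlapped in that order, and those of the other neighbours among these 5 did not. In Cx3cr1 HA Itgb5 (1168 ± 427 CPM per kb) was followed by Itgam (166 ± 5.27), Itgb2 (114 ± 15.3), Itgb1 (33.7 ± 5.49) and Itga6 (17.3 ± 3.63), with no overlap between neighbours. In Sall1 SortIP the order was Itgb5 (411 ± 71.9 CPM per kb), Itgb2 (196 ± 12.8), Itgam (162 ± 19.7), Itga6 (69.2 ± 8.49) and Itgb1 (45.4 ± 7.81), likewise without overlap. In Sall1 Sort it was Itgb5 (235 ± 38.0), Itgam (166 ± 11.8), Itgb2 (163 ± 7.49), Itga6 (73.6 ± 11.1) and Itgb1 (59.3 ± 9.02), where Itgam overlapped Itgb2 and Itga6 overlapped Itgb1.

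Itgb5 made up 75.2% ± 4.04 of the summed length-corrected level of the 8 subunits in Sall1 HA and 76.7% ± 6.08 in Cx3cr1 HA (SD, n = 4 each). Its share was lower in the sorted libraries, from 33.0% ± 3.09 in Sall1 Sort to 45.9% ± 5.64 in Sall1 SortIP. Itgb1 held 12.1% ± 2.38 of this sum in Sall1 HA and 2.36% ± 0.707 in Cx3cr1 HA. The ratio of Itgam to Itgb2 per length was 1.5 ± 0.383 in Sall1 HA, 0.831 ± 0.104 in Sall1 SortIP, 1.02 ± 0.0611 in Sall1 Sort, 1.47 ± 0.213 in Cx3cr1 HA, 1.31 ± 0.314 in Cx3cr1 titled SortIP and 0.952 ± 0.0381 in Cx3cr1 titled Sort. The 8 subunits together took 0.0575% ± 0.00581 of all gene counts in Sall1 HA, against 0.0178% ± 0.00211 in Sall1 IgG, and 0.516% ± 0.134 in Cx3cr1 HA, against 0.0188% ± 0.00105 in Cx3cr1 IgG. Division by length does not remove a length trend that differs between materials. Spearman's rho between log2 fold change and length, HA over SortIP, was -0.197 in the Sall1 line and -0.280 in the Cx3cr1 line by title. Its part in the order and shares per length was not tested.

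**Figure D2:**
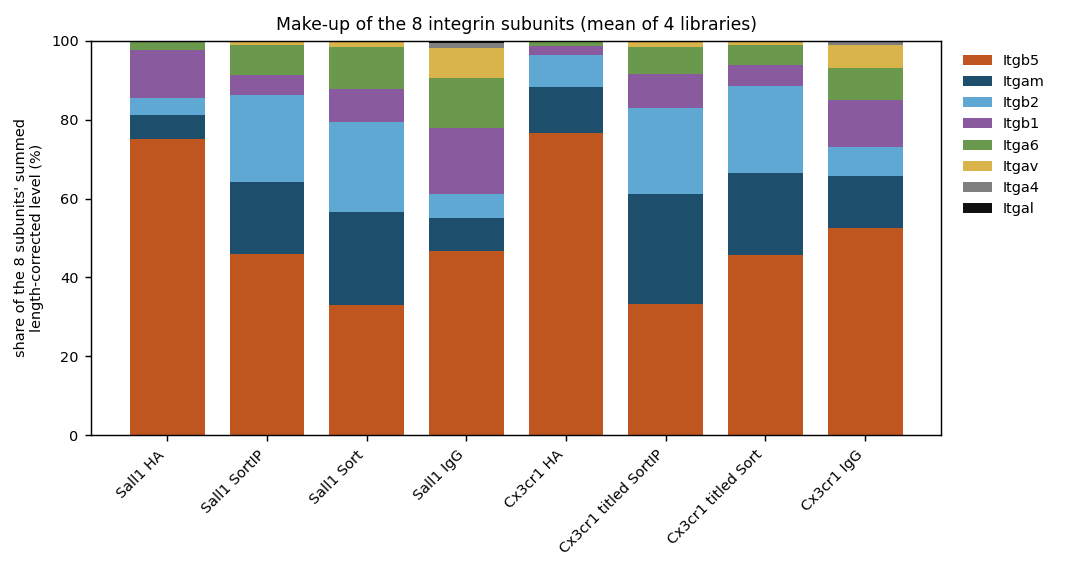
Mean share of each subunit in the summed length-corrected level (CPM per kb) of the 8 subunits, in percent, for the 8 groups of 4 libraries. Itgb5 (orange) takes 75.2% in Sall1 HA and 76.7% in Cx3cr1 HA, more than in any sorted or IgG group. The shares are not corrected for a length trend between materials.

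The comparison of HA with IgG asks which messages the tagged ribosomes of each line brought down beyond the background of the precipitation. In the Sall1 line 4 of the 6 subunits tested were higher in HA and 1 was lower, and in the Cx3cr1 line all 5 tested were higher. Of all genes tested in the Sall1 line 71.3% were called, 35.2% as higher and 36.1% as lower, and in the Cx3cr1 line 64.5%, 28.6% as higher and 36.0% as lower. Adjusted p values are Benjamini-Hochberg values of edgeR's quasi-likelihood test over all genes tested, and a gene is called under 0.05. In the Sall1 line the log2 fold changes were 3.06 ± 0.179 for Itgb5 (SE, adjusted p = 1.5e-10), 1.91 ± 0.185 for Itgb1 (6.3e-08), 1.85 ± 0.228 for Itgam (1.2e-06), 1.77 ± 0.289 for Itgb2 (2.9e-05) and -2.24 ± 0.316 for Itgav (5.6e-06). Itgav passed the low-count filter only through its IgG libraries, where it was higher. Its call gives no support beyond the higher counts that let it be tested. Itga6 did not pass (-0.25 ± 0.244, adjusted p = 0.359), but without scaling factors, where the median of all genes lay at -0.44, it was called lower (-0.66 ± 0.243, adjusted p = 0.022). In the Cx3cr1 line they were 5.97 ± 0.268 for Itgb5 (adjusted p = 2.9e-11), 5.47 ± 0.253 for Itgb2 (4.2e-11), 5.13 ± 0.186 for Itgam (5.7e-12), 2.99 ± 0.237 for Itgb1 (2.3e-08) and 2.63 ± 0.251 for Itga6 (2.0e-07). The median over all genes tested was -0.03 in the Sall1 line and -0.28 in the Cx3cr1 line.

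**Figure D3:**
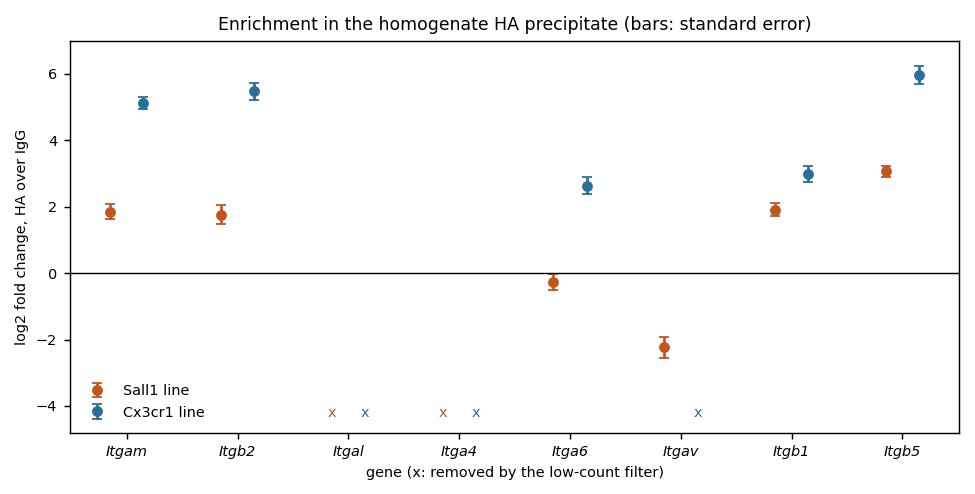
Log2 fold change of HA over IgG with its standard error, in the Sall1 line (orange) and the Cx3cr1 line (blue). Itgam, Itgb2, Itgb1 and Itgb5 lie above 0 in both lines and higher in the Cx3cr1 line, and Itgav lies at -2.24 in the Sall1 line. An x marks genes that the low-count filter removed.

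The low-count filter removed Itgal and Itga4 in both lines and Itgav in the Cx3cr1 line. In a fit without the filter Itgav was lower in Cx3cr1 HA (log2 fold change -2.61 ± 0.688, adjusted p = 0.0021), and Itga4 was lower in Sall1 HA (-3.44 ± 0.782, adjusted p = 2.0e-04). An exact two-sided permutation test over the libraries gave p = 0.0286 for each of these differences, the smallest that 4 against 4 allows, and 0.126 after adjustment over 22 such tests of sparse subunits.

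Fold changes of HA over IgG depended on gene length across all genes, and Itga6 and Itgav, the longest subunit genes tested in the Sall1 line, lay lowest there. Spearman's rho between log2 fold change and length was -0.527 over 11545 genes in the Sall1 line and -0.368 over 10021 genes in the Cx3cr1 line. Genes of 1 library set are not independent replicates. The table's lengths are 2844 bases for Itgb2, 3265 for Itgb5, 4176 for Itgb1, 4650 for Itgam, 5990 for Itga6 and 7023 for Itgav. With a length trend in the fit, together with the mouse as a block, Itga6 was higher in Sall1 HA (0.75 ± 0.232, adjusted p = 0.0073), and Itgav stayed lower (-1.01 ± 0.333, adjusted p = 0.011). Itgam then stood at 2.52 ± 0.237 in the Sall1 line and 5.85 ± 0.218 in the Cx3cr1 line, and Itgb2 at 1.80 ± 0.296 and 5.72 ± 0.255. The direction of Itga6 in the Sall1 line therefore turned on the correction for length and its call on the scaling. Other subunits kept their direction, but in the Sall1 line Itgav moved from -2.24 to -1.01 and Itgam from 1.85 to 2.52. With the mouse as a block and no length trend Itgav stood at -2.23 and Itgam at 1.88. What caused the length trend was not tested.

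**Figure D4:**
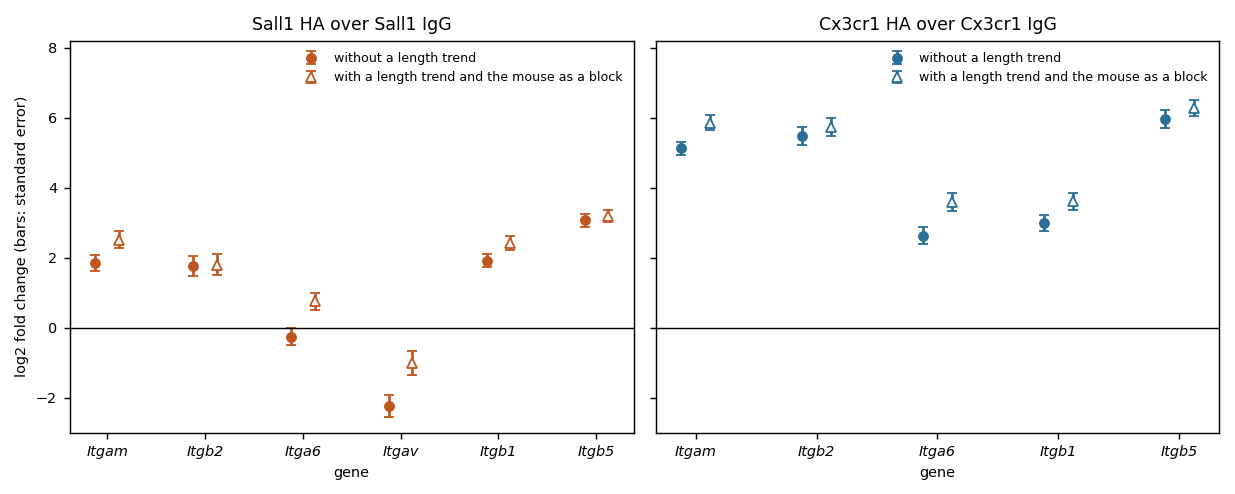
Log2 fold change of HA over IgG with its standard error, without a correction for gene length (filled circles) and with a length trend and the mouse as a block (open triangles), in the Sall1 line (left) and the Cx3cr1 line (right). Itga6 in the Sall1 line stands at 0.75 with the correction and at -0.25 without it, and every other tested subunit keeps its direction.

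HA enrichment itself differed between the lines for 5 of the 7 subunits tested, all with less enrichment in the Sall1 line, against 32.2% of genes called in either direction, 18.5% as higher and 13.7% as lower. In the interaction over the 16 homogenate libraries, Sall1 minus Cx3cr1, the log2 difference was -3.76 ± 0.369 for Itgb2 (adjusted p = 2.3e-08), -3.33 ± 0.259 for Itgam (6.3e-10), -2.94 ± 0.344 for Itga6 (3.4e-07), -2.94 ± 0.297 for Itgb5 (3.5e-08) and -1.13 ± 0.283 for Itgb1 (0.0031). Itgav (0.25 ± 0.902, adjusted p = 0.873) and Itga4 (-1.40 ± 1.97, adjusted p = 0.640) did not pass, with wide errors. All 17 microglial markers of the fixed list were called lower in the same interaction, with a median of -3.41, and all 14 astrocyte markers higher, with a median of 3.23. Oligodendrocyte markers (9 of 10 tested, median 3.05) and those of their precursors (7 of 7, median 3.28) were also called higher. Of 11 border macrophage markers 8 were tested and all 8 were called lower (median -5.68). Only 1 of the 11 passed the low-count filter in Sall1 HA against IgG, while 8 passed in Cx3cr1 HA against IgG, all called higher there. Most were thus tested through Cx3cr1 HA, where they were high, and their calls give no support beyond those counts. Of 12 neuron markers 2 were called higher. The microglial share of the counts moved with these subunit values, and its part in them was not tested.

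Set directly against each other, Sall1 HA was lower than Cx3cr1 HA for all 5 subunits tested, where 52.9% of all genes were called, 27.2% as higher and 25.7% as lower. The log2 fold changes were -4.26 ± 0.177 for Itgam, -4.25 ± 0.20 for Itgb2, -3.43 ± 0.219 for Itgb5, -2.58 ± 0.216 for Itga6 and -0.98 ± 0.188 for Itgb1 (adjusted p from 1.1e-15 to 8.8e-05). Itgb1, the widely expressed beta chain, thus differed least. Itgal, Itga4 and Itgav were removed by the filter here.

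Sorted cells of the Sall1 line show the content of isolated microglia against the homogenate background. All 7 subunits tested were higher in Sall1 Sort than in Sall1 IgG, where 78.2% of all genes were called in either direction and 37.1% as higher. Itgam had 709, 761, 778 and 842 CPM in Sall1 Sort and Itgb2 had 432, 482, 469.9 and 465 CPM. Itgav had 81.5, 65.4, 63.3 and 80.2 CPM in Sall1 Sort, and Itga4 14.5, 8.46, 15.8 and 13.7 CPM. All of these lay above every Sall1 IgG library of the same gene except for Itga4, where Sort replicate 9 fell among the IgG values. The log2 fold changes were 5.88 ± 0.242 for Itgb2, 5.48 ± 0.226 for Itgam, 3.8 ± 0.224 for Itga6, 3.56 ± 0.186 for Itgb5, 3.07 ± 0.193 for Itgb1, 1.68 ± 0.229 for Itgav and 1.40 ± 0.442 for Itga4 (adjusted p from 1.5e-13 to 0.0077). Itga4 entered this test through its Sort libraries, where it was higher, and without Sort replicate 17 it was no longer called (1.14, adjusted p = 0.066).

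The HA precipitate of homogenate was then set against that of sorted cells. In the Sall1 line all 6 subunits tested were lower in HA than in SortIP, where 80.2% of all genes were called, 42.4% as higher and 37.8% as lower. In Sall1 SortIP Itgam had 832, 637, 822 and 728 CPM, Itgb2 had 525, 526, 592 and 584 CPM, and Itgb5 had 1332, 1667, 1110.0 and 1265 CPM. The values of these 3 genes in Sall1 HA, given above, lay below all of them. The log2 fold changes, HA over SortIP, were -4.66 ± 0.199 for Itgb2, -4.23 ± 0.198 for Itga6, -3.88 ± 0.187 for Itgam, -3.78 ± 0.363 for Itgav, -1.57 ± 0.171 for Itgb5 and -1.05 ± 0.185 for Itgb1 (adjusted p from 1.3e-21 to 3.4e-06). Itgav passed the low-count filter only through SortIP, where it was higher, so its call gives no support beyond those counts. Itgb5 and Itgb1 were lower by far less than Itgam and Itgb2.

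In the Cx3cr1 line the subunits did not move together. Against titled SortIP, Itgb5 was higher in HA (2.39 ± 0.210, adjusted p = 2.7e-09) while Itga6 (-1.40 ± 0.205, 3.5e-06), Itgav (-4.63 ± 0.450, 1.2e-08) and Itgb1 (-0.75 ± 0.227, 0.0059) were lower, where 70.1% of all genes were called, 32.6% as higher and 37.5% as lower. Itgam (-0.15 ± 0.161, adjusted p = 0.400) and Itgb2 (-0.32 ± 0.169, adjusted p = 0.0972) did not pass. Without scaling factors, where the median of all genes lay at -0.36, both were called lower (-0.39, adjusted p = 0.039, and -0.56, adjusted p = 0.0063). Itgb5 had 710.3, 1012, 854 and 828 CPM in titled SortIP, all below the 2953 CPM of the lowest HA library. Itgav had 69.2, 92.4, 54.7 and 89.2 CPM in titled SortIP, all above the 4.59 CPM of the highest HA library. By either grouping Itgav passed the low-count filter only through the sorted libraries, so its call gives no support beyond their higher counts. With the groups by description the calls were 5 of 6 (68.1% of all genes called, 31.9% as higher and 36.2% as lower), as Itgb2 then also passed (-0.86 ± 0.169, adjusted p = 2.0e-05), and Itgb5 stood at 1.42 ± 0.185. With the length trend and block Itgam turned to 0.44 ± 0.164 (adjusted p = 0.016), and Itgb1 no longer passed (-0.22 ± 0.199, adjusted p = 0.328).

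SortIP against Sort compares ribosome-bound with total RNA of cells that went through the same isolation. In the Sall1 line Itgb5 was higher in SortIP than in Sort, where it had 719.9, 689.8, 707 and 953 CPM, so that the lowest SortIP library (1110.0 CPM) lay above the highest Sort library. The log2 fold change was 0.96 ± 0.144 (adjusted p = 5.3e-04), which ranked 125th of 8603 genes, and 10.5% of all genes were called, 5.45% as higher and 5.08% as lower. Itgb2 was also called, with a smaller difference (0.41 ± 0.128, adjusted p = 0.041). Every SortIP library of Itgb2 lay above every Sort library, but the call was lost when any of 7 of the 8 libraries was left out, with adjusted p from 0.061 to 0.113. Of 17 microglial markers 9 were called higher here and 0 lower, with a median of 0.535, and their part in the subunit values was not tested. Spearman's rho between log2 fold change and length was -0.181. Over the alternative fits, 1 of them with a length trend, Itgb5 ranged from 0.809 to 1.07 and Itgb2 from 0.266 to 0.442. Itgam (0.11 ± 0.129), Itga6 (0.06 ± 0.142), Itgb1 (-0.24 ± 0.161), Itgav (-0.26 ± 0.276) and Itga4 (-0.78 ± 0.606) did not pass, with adjusted p from 0.369 to 0.825. Itga4 and Itgav rested in part on SortIP replicate 21, the shallowest library of the series, where Itgav had 8.0 CPM (2 reads) against 54.4 to 75.5 CPM in the other three. Without that library Itga4 was called lower (-1.79, adjusted p = 0.040). It then passed the low-count filter only through the Sort libraries, where it was higher, so this call gives no support beyond those counts.

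In the Cx3cr1 line the same comparison pointed the other way by title and the same way by description. Itgb5 had 710.3, 1012, 854 and 828 CPM in titled SortIP, against 1522, 1912, 1336 and 1457 CPM in titled Sort, without overlap. Itgb2 had 434, 493, 562 and 435 CPM in titled SortIP, against 654, 674, 579.8 and 675 CPM in titled Sort, again without overlap. By title the log2 fold changes were -0.99 ± 0.135 for Itgb5 (adjusted p = 5.5e-04) and -0.55 ± 0.126 for Itgb2 (adjusted p = 0.0090), 2 of 6 subunits tested, where 12.8% of all genes were called, 6.35% as higher and 6.46% as lower. By description, where the higher and lower shares are exchanged (6.46% higher and 6.35% lower), the same libraries give 0.99 and 0.55, beside the 0.96 and 0.41 of the Sall1 line. The other 4 subunits tested did not pass (adjusted p from 0.577 to 0.740). The interaction of line and material, a comparison added after the data had been seen, gave 1.96 ± 0.201 for Itgb5 and 0.97 ± 0.167 for Itgb2 by title, where 29.1% of all genes were called. By description it gave -0.03 ± 0.20 and -0.13 ± 0.167, with 0 of 9212 genes called by edgeR's quasi-likelihood test and 251 genes, none of them among these subunits, at an unadjusted p under 0.05.

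**Figure D5:**
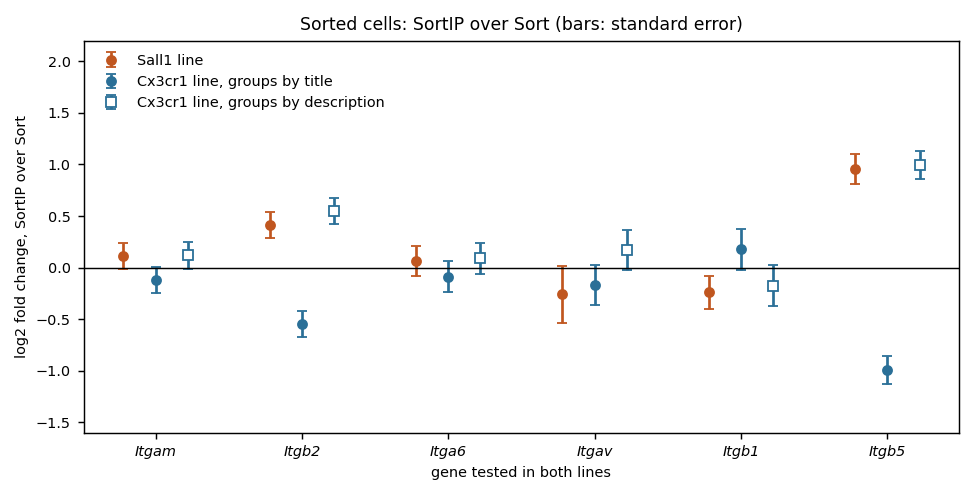
Log2 fold change of SortIP over Sort with its standard error for the 6 subunits tested in both lines. Circles follow the titles and squares the descriptions of the Cx3cr1 libraries. Itgb5 and Itgb2 are above 0 in the Sall1 line (0.96 and 0.41), below 0 in the Cx3cr1 line by title (-0.99 and -0.55) and above 0 by description (0.99 and 0.55).

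Between lines, the sorted libraries were compared by title, by description and as the sum of both sorted libraries of each mouse. The sum needs no contested label, but each library weighs in it by its depth. Sall1 SortIP had 249881 to 980218 gene counts and Sall1 Sort 761172 to 1453481. Cx3cr1 titled SortIP had 746794 to 1808789 and titled Sort 677423 to 1058912. By title the mix of materials in the sums was thus not balanced between lines, and its part in their differences was not tested. By title Sall1 Sort was lower than Cx3cr1 titled Sort for Itgb5 (-1.13 ± 0.124, adjusted p = 7.6e-07), Itgb2 (-0.59 ± 0.112, 5.1e-04) and Itgam (-0.49 ± 0.110, 0.0023), and higher for Itga6 (0.36 ± 0.128, 0.042), where 23.9% of all genes were called, 11.9% as higher and 11.9% as lower. None of these 4 calls held by description, where 1.49% of all genes were called (1.00% higher, 0.484% lower). Itgam (-0.36, adjusted p = 0.202) and Itga6 (0.45, adjusted p = 0.234) had folds of similar size there, while Itgb2 stood at -0.04 and Itgb5 at -0.13 (adjusted p = 0.821). Itga4 was called higher there (1.86 ± 0.415, adjusted p = 0.031), but it passed the low-count filter only through the Sall1 libraries. Sall1 SortIP was higher than Cx3cr1 titled SortIP for Itgb5 (0.84 ± 0.157, adjusted p = 0.0019) and Itga6 (0.52 ± 0.165, 0.046), where 10.9% of all genes were called (5.79% higher, 5.10% lower), and by description neither passed (1.11% called, 0.769% higher and 0.336% lower), with Itgb5 at -0.17 (adjusted p = 0.803) and Itga6 at 0.42 (adjusted p = 0.224). Either Itga6 call was also lost on leaving out single libraries, with adjusted p from 0.056 to 0.190 over these losses.

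In the sums per mouse 3 of 7 subunits tested were called between lines, where 2.67% of all genes were called. Of these Itga4 passed the low-count filter only through the Sall1 mice (5.96 to 18.1 CPM, against 1.15 to 3.88 CPM in the Cx3cr1 mice). Its call gives no support beyond the higher counts that let it be tested. Itga4 was higher in the Sall1 line (1.89 ± 0.397, adjusted p = 0.016), with 13, 13, 27 and 23 reads in the Sall1 mice, against 10, 2, 10 and 5 reads in the Cx3cr1 mice. The exact two-sided permutation test of these 4 against 4 mice gave p = 0.0286, the smallest possible, and 0.126 after adjustment over the 22 tests, so this difference rests on the edgeR fit. Itga6 was also higher (0.46 ± 0.114, adjusted p = 0.041), and Itgam was lower (-0.38 ± 0.0982, adjusted p = 0.048). Itgam averaged 771 ± 47.6 CPM in the sums of Sall1 mice and 1016 ± 96.9 CPM in those of Cx3cr1 mice (SD, n = 4 each). Itgb5 (-0.21 ± 0.129), Itgb2 (-0.13 ± 0.0953), Itgb1 (-0.18 ± 0.162) and Itgav (-0.18 ± 0.147) did not pass. Border macrophage markers took 0.0553% to 0.0891% of the counts in the sorted Sall1 libraries, against 0.0328% to 0.0452% in the sorted Cx3cr1 libraries, and their part in these differences was not tested.

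Other integrin subunits followed the line and material in separate directions. Of 18 further subunit genes 7 passed the filter in Cx3cr1 HA against IgG, where 3 were higher and 3 lower, and 5 passed in the Sall1 line, where 1 was higher and 1 lower. Of all genes 64.5% were called in the Cx3cr1 line and 71.3% in the Sall1 line. In Cx3cr1 HA the beta 3 chain Itgb3, the other well known partner of alpha V and of platelet alpha IIb, was higher (3.89 ± 0.366, adjusted p = 1.7e-07), as were Itgax, the alpha chain CD11c that pairs with beta 2 (3.07 ± 0.445, 2.0e-05), and Itga9 (2.35 ± 0.332, 1.5e-05). Itga3, a laminin-binding alpha chain, was lower there (-3.20 ± 0.405, 4.7e-06) and in Sall1 HA (-2.82 ± 0.318, 4.1e-07). Itgb4, the partner of alpha 6 in hemidesmosomes, was higher in Sall1 HA (0.92 ± 0.206, adjusted p = 6.7e-04), with 61.0 ± 13.7 CPM in Sall1 HA and 43.5 ± 6.46 CPM in Sall1 IgG, against 4.36 ± 3.86 CPM in Cx3cr1 HA and 41.0 ± 8.91 CPM in Cx3cr1 IgG. Itga7, another laminin-binding alpha chain, did not pass in Sall1 HA (-0.56 ± 0.248, adjusted p = 0.0505). The beta 8 chain Itgb8, another partner of alpha V, had 26 reads in all of Sall1 IgG and at most 8 in any other group, and Itgb7, a partner of alpha 4 on lymphocytes, had at most 25 reads in any group. In Sall1 SortIP against Sort none of Itga9, Itgb3 and Itgax, the 3 tested, passed (adjusted p from 0.397 to 0.972).

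Proteins that activate or anchor integrins were listed with 31 genes, of which 27 were tested in either line. In Sall1 HA against IgG 14 were higher and 5 lower, and in Cx3cr1 HA 16 were higher and 6 lower. In the Sall1 line the total is near the 71.3% of all genes called (35.2% higher, 36.1% lower), and in the Cx3cr1 line 64.5% were called (28.6% higher, 36.0% lower). The strongest by adjusted p in Cx3cr1 HA were leukocyte genes, the exchange factor Vav1 (5.67 ± 0.235), the Rap1 effector Apbb1ip, also known as RIAM (4.96 ± 0.241), and the kindlin Fermt3 (4.73 ± 0.227), with adjusted p from 1.4e-11 to 6.3e-11. In Sall1 HA they were the focal adhesion genes Fermt2 (1.45 ± 0.158) and Parva (1.5 ± 0.170), which were higher, and the kinase gene Ptk2b (-1.88 ± 0.189), which was lower, with adjusted p from 9.8e-08 to 4.1e-07. In Sall1 SortIP against Sort, where 10.5% of all genes were called, 2 of 23 tested were higher, Tln1, which codes for the integrin activator talin (0.79 ± 0.155, adjusted p = 0.0034), and Fermt3 (0.68 ± 0.140, adjusted p = 0.0045).

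Among 26 ligand genes 7 of 21 tested were higher and 8 lower in Sall1 HA, and 4 of 18 were higher and 9 lower in Cx3cr1 HA. The Sall1 counts are near the shares of all genes, 35.2% higher and 36.1% lower, and those shares were 28.6% and 36.0% in the Cx3cr1 line. Mfge8, a ligand of alpha V beta 5 that bridges to dying cells, had 1918 ± 128 CPM in Sall1 HA and 204 ± 38.2 CPM in Sall1 IgG (log2 fold change 3.63 ± 0.167, adjusted p = 1.7e-11), against 143 ± 12.2 CPM in Cx3cr1 HA and 183 ± 16.7 CPM in Cx3cr1 IgG. Vtn, which codes for vitronectin, was higher in Sall1 HA (2.22 ± 0.216, adjusted p = 7.5e-08), and Fn1, which codes for fibronectin, was lower (-3.97 ± 0.286, 1.9e-09). Icam1, the ligand of both beta 2 integrins considered here, was higher in HA in both lines (1.13 ± 0.358 in the Sall1 line, adjusted p = 0.0089, and 4.76 ± 0.307 in the Cx3cr1 line, 2.0e-09). Tgfb1, whose latent form alpha V integrins release, was higher in Cx3cr1 HA (4.98 ± 0.398, adjusted p = 1.4e-07), where the neuronal adhesion gene Icam5 was lower (-2.45 ± 0.261, 7.2e-07). In Sall1 SortIP against Sort Thy1 was the single ligand of 8 that passed (1.55 ± 0.423, adjusted p = 0.022). That count is near the share of all genes, of which 10.5% were called, 5.45% as higher. Neuron markers took 0.0249% to 0.0368% of the counts in Sall1 SortIP and 0.0075% to 0.0244% in Sall1 Sort, and their part in the Thy1 value was not tested. Vcam1, the ligand of VLA-4, was lower in Sall1 HA (-0.85 ± 0.304, adjusted p = 0.019) and did not pass in Cx3cr1 HA (-0.86 ± 0.640, adjusted p = 0.25). It averaged 129 ± 20.0 CPM in Sall1 SortIP and 35.5 ± 8.06 CPM in Cx3cr1 titled SortIP. By description the latter libraries are Sort, so these 2 means may come from unlike materials.

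Across the 8 group means on a log2(CPM + 1) scale, Itgam and Itgb2 followed each other most closely among the 8 subunits (Pearson's r = 0.995, n = 8 groups). Itgb1 lay at 0.944 with Itgam and 0.950 with Itgb2, Itgb5 at 0.897 and 0.882, and Itgav at 0.403 and 0.449, while Itgb5 and Itgav gave -0.01. Among 9971 genes with a mean of at least 10 CPM over all 32 libraries, those with the highest r to Itgb2 were Gna15 (0.999), Csf1r, the receptor for the microglial growth factors CSF1 and IL-34 (0.999), and Irf8, a myeloid transcription factor (0.999). The nearest to Itgam were Phf11b (0.999), Inpp5d (0.998) and Parp14 (0.998), to Itga6 Tgfbr2 (0.997), Ndst2 (0.997) and Irf2bp2 (0.996), to Itgb5 Csk (0.995), Umps (0.994) and Slc52a2 (0.993), to Itgb1 Zfp513 (0.996), Tmem63a (0.996) and Alg5 (0.995), and to Itgav Tmem209 (0.999), Etaa1 (0.996) and Cd47 (0.994). For the sparse Itga4 and Itgal the best values were 0.959 (Cab39l) and 0.960 (Dnajb14). The points share libraries, depth and cell make-up, so these values describe likeness over groups and nothing more.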

How the data were processed

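RNA-seq of HA and IgG precipitates from brain homogenate and of sorted microglia was deposited as 1 table of raw exon counts per gene. Per the submitters' processing notes the authors used bcl2fastq, HISAT 0.1.5 and HOMER with genome build mm9; the settings for strand and for reads that map to several places are not given in the sources used here. The counts were used as deposited, all 32 count columns were matched to samples by name, and no column was left unmapped. For the 8 sorted Cx3cr1 libraries the groups follow title and antibody label, and the grouping by description is an alternative.

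CPM is a gene's count per 1e6 gene counts. Tests used edgeR 4.0.16 (R 4.3.3, limma 3.58.1) with TMM factors, filterByExpr at a minimum count of 10, robust quasi-likelihood F tests on the groups compared, and Benjamini-Hochberg adjustment over all genes tested; standard errors are the log2 fold change over the root of F. Subunits below the filter had exact two-sided permutation tests of CPM. Alternatives were median-ratio factors, no scaling, DESeq2 1.42.0, no filter, all 8 groups in one fit, the mouse as replicate block, a length trend, the grouping by description, sums of both sorted libraries of a mouse, and leaving out each library. Same-numbered libraries of a line come from the same mouse by the series' design. The correlation of their deviations had a median of 0.043 over 48 pairs (-0.113 to 0.25), and 16 pairs lay over 0.1. For libraries of other mice of the line the median was -0.0145 over 144 pairs (-0.241 to 0.196), and 5 pairs lay over 0.1. On simulated counts 38% of genes changed by a log2 fold change of 1, and 99% by 2, were recovered for Cx3cr1 HA against IgG (10510 genes, 10 false calls). For Sall1 SortIP against Sort it was 79% and 100% (8593 genes, 13 false calls). The simulation changed 100 genes of each size, balanced up and down, all well counted and with the same spread for every gene. These rates therefore do not describe sparse subunits or comparisons where most genes are called. Replicate pairs differed by more than sampling noise (ratio of chi-square to its degrees of freedom 1.75 to 24.8). The floor of 3 counts covers counting error only. The subunits and all gene lists were chosen with earlier results of these data known. Named genes of the lists are the 3 with the smallest adjusted p in Cx3cr1 HA against IgG, Sall1 HA against IgG and Sall1 SortIP against Sort, with Icam1, Vcam1, Itgb8, Itgax and Itgb7 as extra names.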

Additional observations from a re-analysis of the deposited data

Results flagged for a closer look

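HA enrichment differed between the lines for 5 subunits in the interaction test over the homogenate libraries, Sall1 minus Cx3cr1, on the log2 scale: -3.76 for Itgb2, -3.33 for Itgam, -2.94 for Itga6, -2.94 for Itgb5 and -1.13 for Itgb1. The difference in SortIP over Sort between the lines, by title, was 1.96 for Itgb5 and 0.97 for Itgb2, and by description it was -0.03 and -0.13.

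Single libraries stood apart from the other three of their group in 9 of 64 groups of values. Chance flags about 1 in 20 such groups, but 3 of the 9 are a single read beside 3 libraries at 0, which stands apart by construction, so the count is not read against that rate. Itgb5 had 5893 CPM in Cx3cr1 HA replicate 4, next to 3264 CPM in the nearest library. It had 499 CPM in Sall1 HA replicate 7 (nearest 381), 953 CPM in Sall1 Sort replicate 21 (nearest 719.9) and 54.4 CPM in Sall1 IgG replicate 9 (nearest 66.3). Itga4 had 36.0 CPM in Sall1 SortIP replicate 21 (nearest 4.08) and 2.29 CPM in Cx3cr1 HA replicate 3, where the others had 0. Itgal had 3.49 CPM in Cx3cr1 HA replicate 4 and 0.330 CPM in Sall1 HA replicate 21, each a single read, and 1.79 CPM in Cx3cr1 IgG replicate 3 (nearest 0.454).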

How the results depend on the processing

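Over 1206 recomputed subunit values, 1123 kept direction and side of the threshold, 27 changed sign without a call in either fit, 39 lost the call, 9 gained it and 8 turned round with a call in at least 1 fit. With the length trend and replicate block Itga6 in Sall1 HA against IgG was 0.75 and Itgam in Cx3cr1 HA against SortIP 0.44. By description, SortIP against Sort in the Cx3cr1 line was 0.55 for Itgb2 and 0.99 for Itgb5, the SortIP comparison of lines was -0.17 for Itgb5 (-0.21 in the sums per mouse), and the difference in SortIP over Sort was -0.13 for Itgb2 and -0.032 for Itgb5. The replicate block changed none of 57 subunit calls and moved a value by at most 0.23. The causes were not tested.

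The number of subunits called fell to 1 in Sall1 SortIP against Sort with no scaling, no filter or all 8 groups in one fit, to 1 in Cx3cr1 SortIP against Sort with all 8 groups, to 1 in the Sort comparison of lines by description, and to 1 in the SortIP comparison of lines with no scaling, DESeq2, no filter or all 8 groups. By description it was 0 in the SortIP comparison (2 of 6 at an unadjusted p under 0.05, edgeR) and 0 in the difference of SortIP over Sort (0 of 7). Leaving out single libraries gave 1 to 2 calls in Sall1 SortIP against Sort and in the SortIP comparison of lines. Over all genes, the calls with all 8 groups in one fit were 538 in Sall1 SortIP against Sort (906 without), 537 in Cx3cr1 SortIP against Sort (1115) and 1266 in the Sort comparison of lines (2074). By description the Sort comparison gave 138 and the SortIP one 92 (931 by title), and the sums per mouse gave 266. Without single libraries Sall1 SortIP against Sort gave 393 to 785 genes, Cx3cr1 SortIP against Sort 456 to 1386 and the SortIP comparison of lines 472 to 1039. Without scaling Itga6 in Sall1 HA against IgG and Itgam and Itgb2 in Cx3cr1 HA against SortIP gained a call (-0.66, -0.39 and -0.56), and the median of all genes lay at -0.68 in Cx3cr1 HA against IgG and -0.44 in Sall1 HA against IgG. Depth limits Itgal, Itga4 and, in Cx3cr1 HA, Itgav.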
